A study of Mus musculus with 12 samples.

Results

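Fusion protein given alone was set against 20 Gy of radiation given alone, across all genes, in leukocytes sorted from B16-OVA tumours, a mouse melanoma line that carries chicken ovalbumin as a model antigen. The comparison took 6 of the 12 libraries of the study, 3 with fusion protein and 3 with 20 Gy, chosen by their labelled treatment. Tumours of wild-type mice had grown for 10 days when treatment began. The fusion protein group had a first dose of 20 mcg on day 10, a second of 10 mcg on day 14, and no radiation, and the 20 Gy group received one exposure on day 10 and no fusion protein. The other 6 libraries came from a combined group that had both treatments and from an untreated group, 3 each, and they entered the estimate of the spread. Live cells carrying CD45, a surface protein of leukocytes, and CD11c, an integrin subunit typical of dendritic cells, were collected on day 17. What the fusion protein is made of is not given in the labels and is not described here. Whether replicate libraries come from different mice is not stated, so every p-value rests on the spread among libraries, part of which may be technical.

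Type I interferons signal through a receptor shared by nearly all cells to transcription factors that bind a promoter element of interferon-stimulated genes. The proteins of those genes sense or degrade viral RNA, block viral replication or tune the signal itself. CD11c+ cells of tumours include type 1 conventional dendritic cells (cDC1), which present antigen of dying cells to CD8+ T cells, other dendritic cells and macrophages. In mice, natural killer (NK) cells and activated T cells also carry CD11c.

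The sorted cells carried the RNA of both sort markers. Ptprc, which encodes CD45, had 53840, 42130 and 31490 normalized counts in fusion protein libraries 1 to 3, against 44200, 40640 and 30920 in the 20 Gy libraries. Itgax, which encodes CD11c, had 7320, 4200 and 2226 normalized counts in fusion protein libraries, against 7937, 6746 and 4558 in 20 Gy libraries. Both ranges overlapped. The 6 libraries held 15079786 to 19155894 reads in genes. Some libraries stood apart. Among 1479 receptor genes of smell and pheromone sensing (olfactory, vomeronasal, trace-amine), not used by immune cells and called silent receptor genes here, 29.07%, 5.41% and 21.84% had a read in the fusion protein libraries, against 84.85%, 64.71% and 14.27% in the 20 Gy libraries. The pigment cell gene Tyrp1 had 3.17, 2.03 and 1147 normalized counts with fusion protein, against 7.92, 4.29 and 4718 with 20 Gy, so that both libraries numbered 3 carried pigment cell RNA. The summed melanocyte list was highest in library 3 of every group. It was 5237 with fusion protein, 17430 with 20 Gy, 1496 in the combined and 2051 in the untreated group. Libraries 1 and 2 of the groups had 158.5 to 471.9. Mitochondrial genes took 18.57% of reads in 20 Gy library 3. Results are therefore given with and without single libraries where these change them.

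Of 50 listed type I interferon genes 32 rose, while 6 of 18 cDC1 genes fell, as did Cd209d and Cd209a, which encode lectins, in fusion protein libraries relative to 20 Gy libraries. Of 18274 genes tested, 143 rose (0.783%) and 127 fell (0.695%) at a Benjamini-Hochberg adjusted p under 0.05 in limma, where a rise means higher with fusion protein. The median log2 fold change was 1.77 among the genes that rose and −2.05 among those that fell, against −0.04 over all tested genes. The values of the 2 groups did not overlap for any of these 270 genes, while this held for 17.5% of all tested genes. The 270 genes were called on the difference in these same libraries, which favours separate groups, so nothing is read from these shares. The rule that named genes for the largest rises and falls required separate groups, so the separation of those genes was set beforehand. With the replicate number as a block, 809 genes rose (4.43%) and 877 fell (4.8%), among them all 270. Every group holds each replicate number, so the block leaves each fold change and its direction as they were and changes only the spread. Leaving out 20 Gy library 1 gave 41 rises (0.224%) and 14 falls (0.0766%), and leaving out 20 Gy library 2 gave 40 (0.219%) and 14 (0.0766%). Without 20 Gy library 3 there were 166 rises (0.908%) and 98 falls (0.536%). Without fusion protein library 1, 2 or 3 there were 54 (0.296%), 101 (0.553%) or 93 (0.509%) rises and 66 (0.361%), 59 (0.323%) or 54 (0.296%) falls. On recovered whole reads edgeR called 107 rises (0.586%) and 85 falls (0.465%), and DESeq2 412 (2.26%) and 497 (2.73%). With the level of the silent receptor genes as a covariate, 27 rose (0.148%) and 17 fell (0.093%), including 25 and 10 of the called genes, and all 270 kept their direction. The part of the receptor reads in these counts was not tested beyond these values. Where an adjusted p without a named library is given below for a called gene, it is the highest of the 6 fits that each leave out 1 library. Fn1, Kit, Zbtb46, Itgb5 and Marcks kept their calls in none of these fits. Adgrb1, Cd209d, Cst7, Cyp7b1, Gbp6, Gzmb, H2-Ab1, H2-K1, Irf9, Itga8, Klrb1c, Lgals9 and Ngfr kept theirs in 1.

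**Figure D1:**
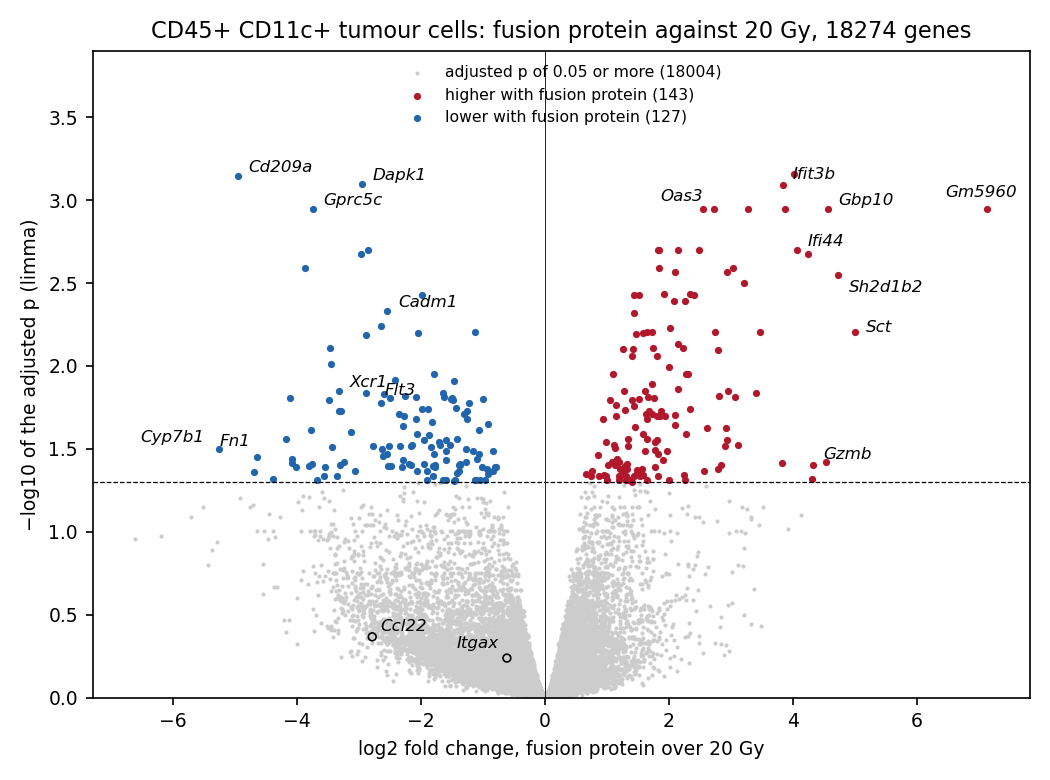
Log2 fold change of fusion protein over 20 Gy (x axis) against −log10 of the limma adjusted p (y axis) for 18274 tested genes, each point a gene, with the dashed line at an adjusted p of 0.05. Of the genes above the line, 143 are higher with fusion protein (red) and 127 lower (blue); Ccl22 and Itgax, ringed, lie below it.

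Promoters of 4 called genes, 2 of each direction, are shown for the interferon element that some of them hold. Each is given as 250 bases before to 50 after the gene start, from RefSeq on build GRCm38.p6, in the direction of the gene, with every pair of GAAA blocks separated by 2 bases, on either strand, in capitals. This pattern holds the core of the interferon-stimulated response element. Ifit3 and Oas3 rose with fusion protein and are at chr19:34583279-34583578 (+) and chr5:120777610-120777909 (−). Cd209a and Xcr1 fell and are at chr8:3748935-3749234 (−) and chr9:123861980-123862279 (−).
Ifit3: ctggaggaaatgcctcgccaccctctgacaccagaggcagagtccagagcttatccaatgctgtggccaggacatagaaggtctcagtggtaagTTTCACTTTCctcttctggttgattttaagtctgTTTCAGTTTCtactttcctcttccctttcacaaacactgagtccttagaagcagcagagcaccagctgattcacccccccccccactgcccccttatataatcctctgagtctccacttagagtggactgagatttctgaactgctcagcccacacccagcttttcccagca
Oas3: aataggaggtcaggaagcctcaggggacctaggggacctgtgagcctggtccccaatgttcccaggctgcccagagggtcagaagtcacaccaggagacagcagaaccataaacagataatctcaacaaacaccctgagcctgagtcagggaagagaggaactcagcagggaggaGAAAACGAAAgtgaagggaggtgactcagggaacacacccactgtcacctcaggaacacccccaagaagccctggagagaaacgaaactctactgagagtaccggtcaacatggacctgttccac
Cd209a: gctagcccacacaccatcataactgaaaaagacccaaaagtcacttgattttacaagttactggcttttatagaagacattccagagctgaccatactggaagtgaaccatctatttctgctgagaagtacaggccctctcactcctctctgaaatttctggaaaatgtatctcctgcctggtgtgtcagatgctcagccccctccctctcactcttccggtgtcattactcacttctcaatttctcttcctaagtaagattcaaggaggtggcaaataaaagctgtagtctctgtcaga
Xcr1: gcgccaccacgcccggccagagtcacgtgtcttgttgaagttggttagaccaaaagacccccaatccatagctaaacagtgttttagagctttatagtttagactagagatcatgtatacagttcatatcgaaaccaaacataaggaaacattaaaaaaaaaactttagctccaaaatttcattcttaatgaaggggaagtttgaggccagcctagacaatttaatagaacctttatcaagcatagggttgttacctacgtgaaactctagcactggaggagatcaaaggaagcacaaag
The Ifit3 window held 2 matches, the Oas3 window 1, and the Cd209a and Xcr1 windows 0. Over all 32851 promoters 3.44% held a match, and of 11625 tested genes with a promoter 3.95% did. Of 100 genes that rose and had a promoter in the table, 28 held one (28%), against 4 of 92 genes that fell (4.35%). The gamma-activated site, TTC and GAA separated by 3 bases, searched the same way and free to overlap the first pattern, was in 20% of the genes that rose, 9.78% of those that fell and 8.3% of all promoters. A match describes the letters of the window and not a bound site.

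All 50 listed type I interferon genes had a higher mean log2 level with fusion protein than with 20 Gy, and 32 of them rose, with a median log2 fold change of 2.16. This count was 19 without fusion protein library 1, 14 without 20 Gy library 1, 13 without 20 Gy library 2, 10 with the receptor covariate and 49 with the block. Ifit3, which encodes an antiviral protein with tetratricopeptide repeats, had 8862, 5879 and 7254 normalized counts with fusion protein, against 351, 350 and 979 with 20 Gy. Every fusion protein library lay several-fold above every 20 Gy library, and 20 Gy library 3 was the highest of its group. The log2 fold change was 3.87 ± 0.37 (SE, adjusted p = 0.00113 in limma). Ifi44, an interferon-induced gene, had 6070, 1862 and 2315 normalized counts with fusion protein, against 138, 137 and 289 with 20 Gy, a log2 fold change of 4.07 ± 0.45 (limma adjusted p = 0.00199). Oas3, which makes the oligoadenylates that activate RNase L, had 5357, 4513 and 5177 normalized counts with fusion protein and 524, 660 and 1233 with 20 Gy (log2 fold change 2.73 ± 0.28). The groups were separate for both genes. Ifit3b and Ifit1bl1, neighbours of Ifit3, rose by 3.83 ± 0.34 and 3.47 ± 0.48 on the log2 scale; Ifit3 and Ifit3b are near-identical and may share reads. Siglec1, the adhesion receptor CD169, rose by 2.92 ± 0.53, but not without 20 Gy library 2 (limma adjusted p = 0.12). Isg15, a ubiquitin-like modifier, had 2963, 1115 and 4531 normalized counts with fusion protein, against 125, 198 and 1245 with 20 Gy, and did not pass (adjusted p = 0.101 in limma, 0.00135 with the replicate block).

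Usp18, a protease that removes ISG15 and damps the receptor, had 6146, 4106 and 5270 normalized counts with fusion protein, against 367, 451 and 890 with 20 Gy (log2 fold change 3.27 ± 0.32, limma adjusted p = 0.00113). Irf7, the factor that drives interferon alpha genes, had 20420, 14950 and 16880 with fusion protein, against 1318, 1738 and 4130 with 20 Gy (log2 fold change 3.03 ± 0.36). Irf9, which encodes a subunit of the factor that binds the response element, rose by 0.76 ± 0.16 on the log2 scale. Each fusion protein library was above each 20 Gy library for these 3 genes. The receptor genes Ifnar1 and Ifnar2 differed by −0.18 ± 0.19 and −0.01 ± 0.21 (limma adjusted p = 0.744 and 0.989). Of 27 listed receptor and signalling genes 4 rose, these 3 among them, and none fell, with a median log2 fold change of 0.16. With the block 7 rose and 1 fell, and without 20 Gy library 1 or 2, or with the receptor covariate, 2 rose. Irf9 lost its call without 20 Gy library 1 (limma adjusted p = 0.201).

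Among 21 tested sensors of nucleic acids, 5 rose, none fell, and the median log2 fold change was 0.77; the block gave 11 rises and 2 falls. The rises were 2 without fusion protein library 1, 20 Gy library 1 or 20 Gy library 2, and 1 with the receptor covariate. Ddx58, the RNA sensor RIG-I, had 6292, 4946 and 3985 normalized counts with fusion protein, against 1308, 1411 and 1521 with 20 Gy (log2 fold change 1.82 ± 0.20, limma adjusted p = 0.00199). Adar, which edits double-stranded RNA, rose by 1.42 ± 0.21, and Dhx58, a relative of RIG-I, by 1.76 ± 0.29. Zbp1, a sensor of Z-form nucleic acid, rose by 2.35 ± 0.40. Without 20 Gy library 1, Dhx58 and Zbp1 had limma adjusted p = 0.0898 and 0.101.

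Of 29 listed guanylate-binding proteins, immunity-related GTPases and other interferon gamma targets, 6 rose and none fell, with a median of 1.29; with the block 16 rose and 1 fell. The rises were 2 without fusion protein library 1, 20 Gy library 1 or 20 Gy library 2, 3 without fusion protein library 3, 11 without 20 Gy library 3 and 2 with the receptor covariate. Gbp10 had 1907, 1168 and 855 normalized counts with fusion protein, against 40.5, 50.4 and 66.8 with 20 Gy, the largest difference of the list (log2 fold change 4.56 ± 0.45, limma adjusted p = 0.00113). Gbp4 rose by 1.85 ± 0.20, Gbp6 by 3.12 ± 0.59 and Tgtp2 by 2.27 ± 0.42. Gbp6 and Tgtp2 lost their calls without 20 Gy library 1 (limma adjusted p = 0.136 and 0.123). Genes of these families are similar in sequence, and their reads may be shared. The interferon gamma-induced chemokine genes Cxcl9 and Cxcl10 were not called. Cxcl9 differed by −1.07 ± 0.78 (limma adjusted p = 0.595, with the block 0.219). Cxcl10 had 1499, 411 and 3589 normalized counts with fusion protein, against 78.3, 133 and 2730 with 20 Gy. Cxcl10 differed by 2.09 ± 1.42, in the direction of the genes that rose (limma adjusted p = 0.561, with the block 0.0704). The library-3 value of 20 Gy overlapped the fusion protein values of Cxcl10.

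**Figure D2:**
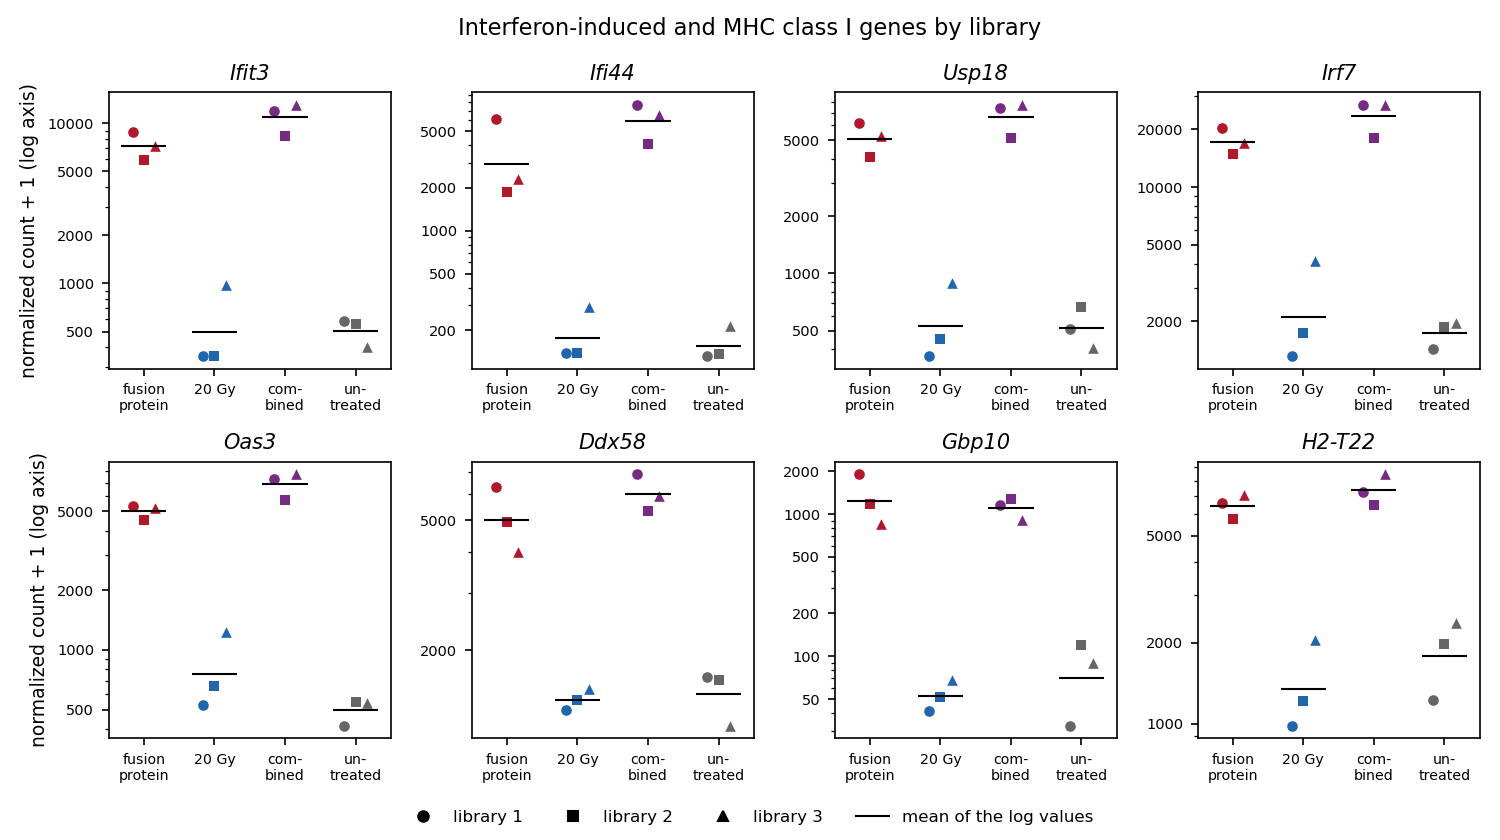
Normalized count plus 1 on a log axis for 8 genes in each library of the fusion protein, 20 Gy, combined and untreated groups; symbols mark the library number and lines the mean of the log values. For all 8 genes the 3 fusion protein libraries lie above the 3 20 Gy libraries, and the combined libraries lie at levels like those of fusion protein.

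Of 23 genes of MHC class I presentation, 22 had a positive log2 fold change and 6 rose, with a median of 0.77; the block gave 15 rises. The rises were 2 without fusion protein library 1, 2 without fusion protein library 2, 2 without 20 Gy library 1, 1 without 20 Gy library 2 and 0 with the receptor covariate. H2-T22, a nonclassical class I molecule, had 6606, 5746 and 7074 normalized counts with fusion protein, against 983, 1217 and 2044 with 20 Gy (log2 fold change 2.26 ± 0.29, limma adjusted p = 0.00405). H2-K1, a classical class I heavy chain, had 49550, 50670 and 50500 with fusion protein, against 15860, 18910 and 31040 with 20 Gy (1.26 ± 0.26). Nlrc5, the transactivator of class I genes, rose by 1.14 ± 0.20. The groups were separate for all of these, with 20 Gy library 3 the highest of its group. H2-K1 lost its call without 20 Gy library 1 (adjusted p = 0.201) and Nlrc5 without 20 Gy library 2 (0.11). B2m, the class I light chain, differed by 0.67 ± 0.35 (adjusted p = 0.429, with the block 0.0404).

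All 14 tested class II genes had a negative log2 fold change, with a median of −1.08; H2-Ab1 alone was called, and the block gave 7 falls. The count was 3 without fusion protein library 2 and 0 without any 1 of the other 5 libraries or with the receptor covariate. H2-Ab1, a class II beta chain, had 16940, 21080 and 7880 normalized counts with fusion protein, against 40330, 40590 and 52900 with 20 Gy (log2 fold change −1.65 ± 0.36, limma adjusted p = 0.0484). The groups were separate, and fusion protein library 3 was the lowest. Without 20 Gy library 1 the adjusted p of H2-Ab1 was 0.163. Ciita, the transactivator of class II genes, differed by −1.52 ± 0.68 (adjusted p = 0.348, with the block 0.0313).

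In these sorted mixtures, fewer cells of a type and less RNA per cell cannot be told apart. Of 18 cDC1 genes 6 fell and none rose, with a median log2 fold change of −1.81; with the block 14 fell. Xcr1, the chemokine receptor that marks cDC1, had 158, 193 and 30.8 normalized counts with fusion protein, against 1132, 931 and 903 with 20 Gy (log2 fold change −3.31 ± 0.53, limma adjusted p = 0.0142). Cadm1, an adhesion molecule of cDC1, had 160, 166 and 167 with fusion protein, against 1128, 1000 and 780 with 20 Gy (−2.54 ± 0.33, adjusted p = 0.00468). No fusion protein library reached the lowest 20 Gy library for either gene, and Cadm1 hardly varied among the fusion protein libraries. Gcsam fell too (log2 fold change −2.88), as did Naaa, a lysosomal amidase (−2.25), Cd36, a scavenger receptor (−3.12), and Ppt1, a lysosomal thioesterase (−1.60). The log2 fold change was positive for Irf8, Id2 and Ifi205. Irf8, a factor cDC1 need, had 11540, 12110 and 23770 with fusion protein, against 8662, 9561 and 14330 with 20 Gy (log2 fold change 0.49 ± 0.31, adjusted p = 0.523). Clec9a, a receptor for dead cells, differed by −1.90 ± 0.64 (adjusted p = 0.2, with the block 0.00533) and Batf3, a cDC1 factor, by −1.53 ± 0.59 (adjusted p = 0.266, with the block 0.0222). The count of falls was 2 without 20 Gy library 1, 2 without 20 Gy library 2, 3 without fusion protein library 3 and 0 with the receptor covariate. Xcr1 had a limma adjusted p of 0.0787, Naaa of 0.0761, Cd36 of 0.127 and Ppt1 of 0.159 without 20 Gy library 1.

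Cd209a, a lectin of type 2 and monocyte-derived dendritic cells, had 58.2, 44.6 and 16.5 normalized counts with fusion protein, against 1203, 1099 and 1040 with 20 Gy. All 3 fusion protein values were far below the narrow range of the 20 Gy group. The log2 fold change was −4.95 ± 0.41 (limma adjusted p = 0.000718), and the call held without any 1 of the 6 libraries. Cd209d, at 5.29, 17.2 and 2.20 with fusion protein, against 92.4, 118 and 89.0 with 20 Gy, fell by 3.80 on the log2 scale, with an adjusted p of 0.168 without 20 Gy library 2. Reads of Cd209 genes may be shared. Of 17 tested members of the list of type 2 dendritic cell and Cd209 genes these 2 fell and none rose, and Cd209b had a positive value that did not pass (1.52, adjusted p = 0.73). The block gave 6 falls, and leaving out 1 library gave 3 falls without fusion protein library 2 and 1 in the other 5 fits. Among 12 genes of conventional dendritic cells, Flt3, Kit and Zbtb46 fell, the block gave 5 falls, and the median was −0.66. The count was 0 without 20 Gy library 1 or 2, 1 without any 1 of the other 4 libraries and 0 with the receptor covariate. Flt3, the growth factor receptor of dendritic cells, had 827, 681 and 243 with fusion protein, against 3669, 3484 and 2620 with 20 Gy (log2 fold change −2.64 ± 0.44, adjusted p = 0.0168). Zbtb46, a factor of conventional dendritic cells, had 686, 450 and 418 with fusion protein, against 1434, 1315 and 1398 with 20 Gy (−1.45 ± 0.32). The groups were separate for both. Without 20 Gy library 1 the adjusted p was 0.0949 for Flt3, 0.13 for Kit and 0.197 for Zbtb46.

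**Figure D3:**
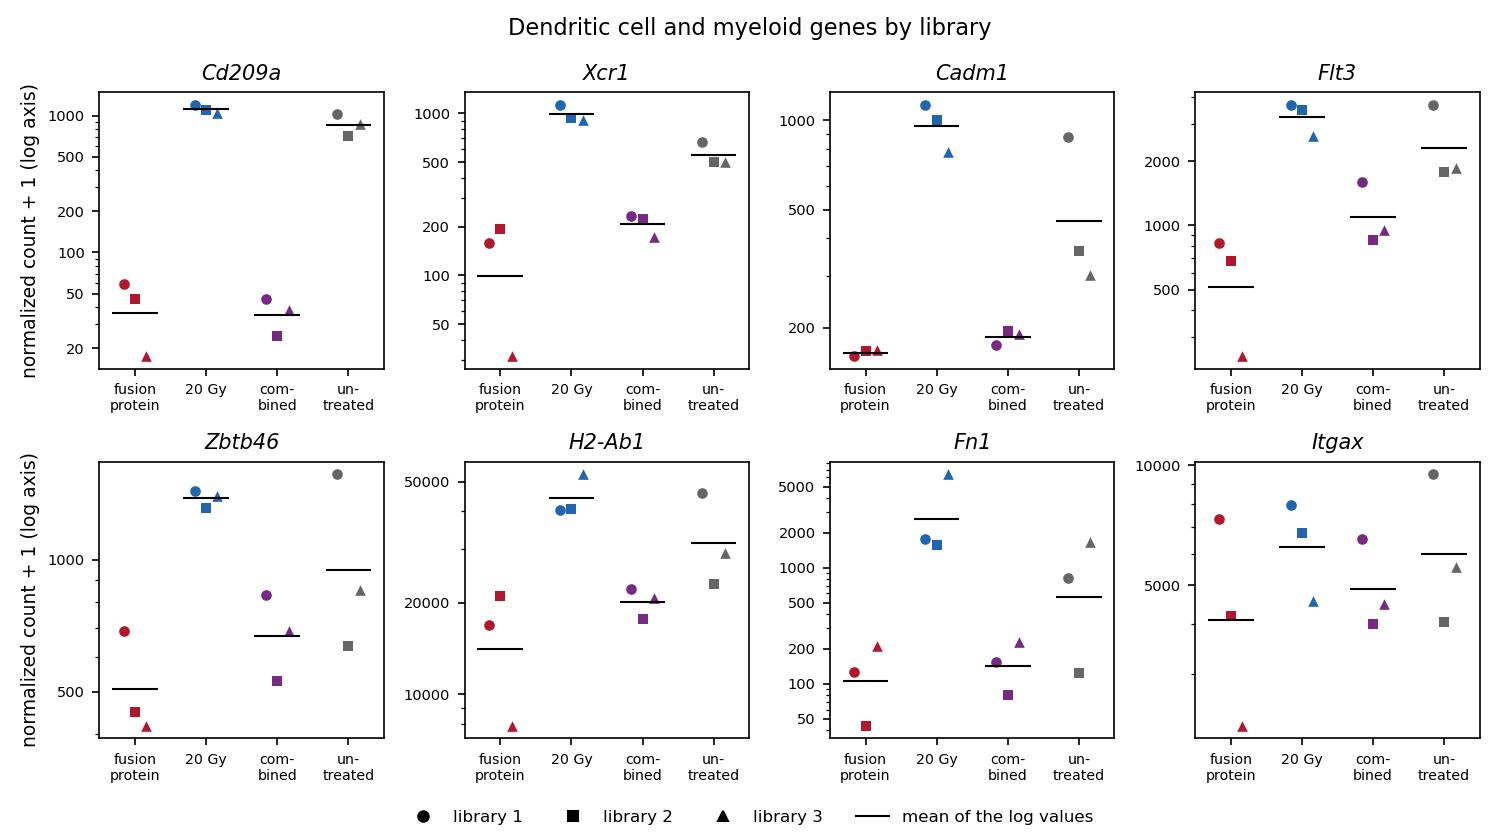
Normalized count plus 1 on a log axis for 8 dendritic cell and myeloid genes in each library of the 4 groups; symbols mark the library number and lines the mean of the log values. Cd209a, Xcr1, Cadm1, Flt3, Zbtb46, H2-Ab1 and Fn1 are lower in every fusion protein library than in every 20 Gy library, while the ranges of Itgax overlap.

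The mature regulatory dendritic cell program, to which Ccl22 belongs, had few called genes. Of 37 listed genes Ccl5 rose and Marcks fell, while 27 had a negative and 10 a positive log2 fold change. The median was −0.35, against 0.19 without the libraries numbered 3 and −1.2 with the receptor covariate. Ccl22, a chemokine that attracts regulatory T cells, had 11.6, 284 and 92.3 normalized counts with fusion protein, against 105, 274 and 3751 with 20 Gy. Library 1 was the lowest of each group, and 20 Gy library 3 stood far above all others. The log2 fold change was −2.78 ± 1.44 (limma adjusted p = 0.429), and with the replicate block it passed (adjusted p = 0.0376). Ccl17, its relative, differed by −2.93 ± 1.41 (adjusted p = 0.387). Ccr7, the receptor that takes dendritic cells to lymph nodes, Fscn1, an actin bundler, and Cd274, which encodes PD-L1, differed by 0.11 ± 0.97, −0.39 ± 0.97 and −0.01 ± 0.72 (adjusted p = 0.982, 0.912 and 0.998), and their sign changed between settings. Il12b, a subunit of interleukin 12, differed by −1.76 ± 1.20 (adjusted p = 0.564), and Foxp3, the factor of regulatory T cells, by −1.14 ± 1.17 (adjusted p = 0.728). Lgals9, which encodes the inhibitory lectin galectin-9, was the member of 19 checkpoint genes that rose (1.82 ± 0.36, limma adjusted p = 0.0338, but 0.141 without 20 Gy library 2). Of these 19 genes 15 had a negative log2 fold change, with a median of −0.535, and the block gave 1 rise and 2 falls.

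Of 31 tested members of the cytotoxic lymphocyte and NK cell list, 29 had a positive log2 fold change and 9 rose, with a median of 1.30; with the block 22 rose. Gzmb, a granule protease, had 28370, 16940 and 105300 normalized counts with fusion protein, against 804, 1218 and 6512 with 20 Gy (log2 fold change 4.32 ± 0.88, limma adjusted p = 0.0398). Gzma, another granule protease, had 32800, 13490 and 23340 with fusion protein, against 3491, 3528 and 5735 with 20 Gy (2.40 ± 0.31, adjusted p = 0.00373). Prf1, the pore-forming perforin, had 6622, 6142 and 18080 with fusion protein, against 928, 1224 and 2833 with 20 Gy (2.61 ± 0.47, adjusted p = 0.0238). The groups were separate for all 3 genes, and library 3 was the highest of its group except for Gzma with fusion protein. Klrg1, an inhibitory receptor of effector cells, rose by 2.15 ± 0.31, Klra7, an NK cell receptor, by 1.88 ± 0.32, and the chemokine gene Ccl5 by 2.01 ± 0.27. Nkg7, a granule protein, Klrb1c, the NK1.1 antigen, and Cst7, an inhibitor of granule proteases, also rose (1.97 ± 0.38, 1.30 ± 0.28 and 2.00 ± 0.43). Ncr1, an activating receptor of NK cells, did not pass (1.28 ± 0.30, adjusted p = 0.0708, with the block 0.00307), nor did Ifng (1.71 ± 0.77, adjusted p = 0.347, with the block 0.00889). The count of 9 was 3 without 20 Gy library 1, 3 without 20 Gy library 2, 5 without fusion protein library 1, 12 without 20 Gy library 3 and 0 with the receptor covariate. Gzma, Klrg1 and Ccl5 kept their calls without any 1 library, whereas Gzmb, Prf1, Klra7, Nkg7, Klrb1c and Cst7 had limma adjusted p = 0.183, 0.12, 0.102, 0.156, 0.174 and 0.201 without 20 Gy library 1.

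Of 27 T cell genes 25 had a positive log2 fold change, the median was 1.06, and limma called 0, with 8 at an unadjusted p under 0.05; edgeR called 0, DESeq2 3 and the block 13. The summed normalized count of this list was 24210 to 61610 in fusion protein libraries and 11130 to 31400 in 20 Gy libraries, with none of its members at 0. Cd3e, a subunit of the T cell receptor complex, had 629, 2343 and 3124 with fusion protein, against 407, 1385 and 1619 with 20 Gy, overlapping ranges. The summed cytotoxic list had 96220 to 262200 with fusion protein and 28640 to 74450 with 20 Gy. The part of a changed share of lymphocytes in the granule genes was not tested.

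**Figure D4:**
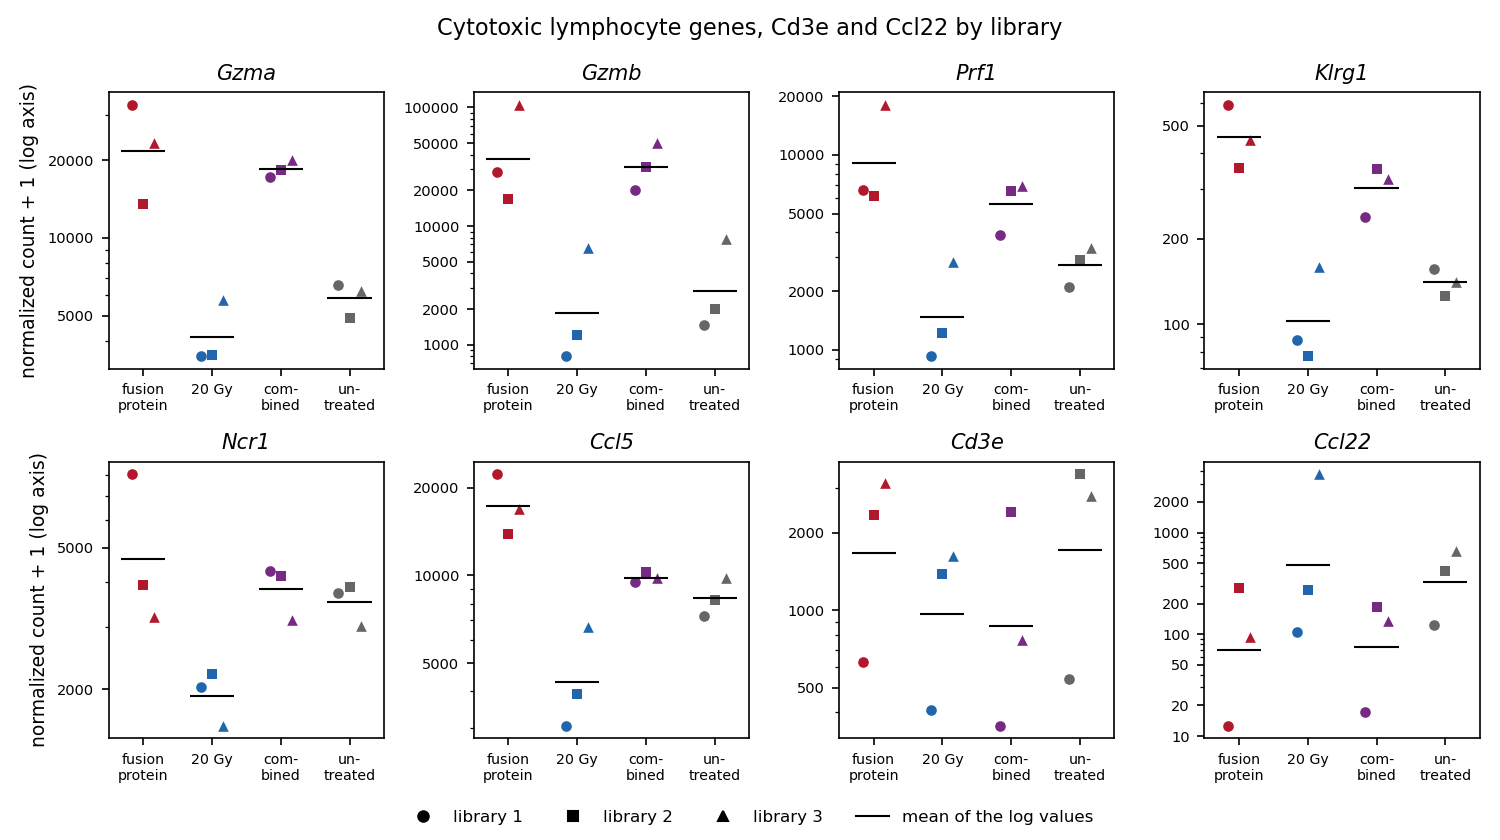
Normalized count plus 1 on a log axis for 6 cytotoxic lymphocyte genes, the T cell gene Cd3e and Ccl22 in each library of the 4 groups; symbols mark the library number and lines the mean of the log values. The fusion protein libraries lie above the 20 Gy libraries for Gzma, Gzmb, Prf1, Klrg1, Ncr1 and Ccl5, while ranges overlap for Cd3e and Ccl22.

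Beyond these groups, the largest rises among annotated genes included Sct, the hormone secretin, which in mice marks plasmacytoid dendritic cells. Sct had 89.9, 99.3 and 115 normalized counts with fusion protein, against 0, 2.14 and 9.16 with 20 Gy (log2 fold change 5.01 ± 0.69, limma adjusted p = 0.00621). The plasmacytoid list was split. Of 20 genes 10 had a positive and 10 a negative log2 fold change, with a median of −0.06. Irf7 was the other that rose in limma, and Cd209d fell. The block gave 4 rises and 2 falls, and DESeq2 3 rises and 2 falls. Siglech, a surface receptor of these cells, differed by −0.82 ± 0.50 (limma adjusted p = 0.51). Bst2, another member, differed by 1.53 (limma adjusted p = 0.151, with the block 0.0211). Sh2d1b2, an adaptor of NK cells, had 560, 317 and 515 with fusion protein, against 10.6, 32.1 and 11.8 with 20 Gy (4.73 ± 0.57). The groups were far apart for Sct and Sh2d1b2, though reads of the Sh2d1b genes may be shared. Cma1, a chymase of mast cells, had 1045, 476 and 458 with fusion protein, against 128, 106 and 55.0 with 20 Gy (2.74 ± 0.38), while the mast cell gene Cpa3 stayed at or under 19.4 in every one of the 6 libraries. Ly6c2, a monocyte surface antigen, had 11200, 5443 and 9005 with fusion protein, against 601, 1083 and 1891 with 20 Gy (2.93 ± 0.55, limma adjusted p = 0.0278, but 0.136 without 20 Gy library 1). Of 20 monocyte genes, Ly6c2 alone was called higher in limma and Fn1 lower. Of these 20, 12 had a negative and 8 a positive log2 fold change, with a median of −0.292 and a highest value of 2.96. The block gave 5 rises and 2 falls, and DESeq2 3 rises and 1 fall. Fabp3, a fatty acid carrier, and Adgrb1, an adhesion receptor that binds phosphatidylserine, rose by 4.53 ± 0.91 and 4.31 ± 0.93, with adjusted p = 0.174 without 20 Gy library 1 and 0.153 without 20 Gy library 2. The largest rise of all tested genes was that of the pseudogene Gm5960 at chr15:75071112-75074638, named after its value was seen. It had 1286, 349 and 744 normalized counts with fusion protein, against 3.52, 10.7 and 1.31 with 20 Gy (7.13 ± 0.69, adjusted p = 0.00113); pseudogenes can share reads with their parent genes.

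The largest falls included matrix, enzyme and receptor genes. Fn1, the matrix protein fibronectin, had 125, 42.6 and 209 normalized counts with fusion protein, against 1766, 1559 and 6395 with 20 Gy (log2 fold change −4.63 ± 0.92, limma adjusted p = 0.0352). Cyp7b1, an oxysterol hydroxylase, had 1.06, 0 and 6.59 with fusion protein, against 45.8, 63.2 and 285 with 20 Gy (−5.25 ± 1.01, adjusted p = 0.0315). The groups were separate for both, but Fn1 lost its call without any 1 of the 6 libraries and Cyp7b1 in 5 of these 6 fits, at an adjusted p of up to 0.108 for Fn1 and 0.105 for Cyp7b1. The orphan receptor gene Gprc5c fell more evenly, at 13.8, 17.2 and 23.1 with fusion protein, against 215, 218 and 327 with 20 Gy (−3.74 ± 0.38, adjusted p = 0.00113), and kept its call without any 1 library. Dapk1, a kinase of cell death pathways named after its values were seen, did so too (−2.94 ± 0.25, adjusted p = 0.000806). Fzd1, a Wnt receptor, Ngfr, the low-affinity neurotrophin receptor, and Itga8, an integrin chain, also fell (log2 fold changes −3.48, −3.55 and −4.17), with adjusted p = 0.101 for Fzd1 and 0.145 for Itga8 without 20 Gy library 1 and 0.154 for Ngfr without 20 Gy library 2. Of 23 listed genes for the uptake of dying cells, Cd36, Itgb5 and Pros1 fell and none rose, with a median of −1.41. Adgrb1, which rose, is not on this list. The block gave 5 falls and 1 rise, and DESeq2 4 falls and 1 rise. The count of falls was 0 without fusion protein library 2 or 3, 0 without 20 Gy library 1 or 2, and 0 with the receptor covariate. Over untreated, the median of this list was −0.05 with fusion protein and 1.07 with 20 Gy, with 0 genes called in limma.

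The macrophage, neutrophil and red cell lists had negative medians, with 0 genes called in limma. Of 24 macrophage genes 20 had a negative log2 fold change and limma called 0 (median −1.23, 6 at an unadjusted p under 0.05); edgeR called 0, DESeq2 2 falls, and the block 7 falls and 1 rise. Mrc1, the mannose receptor, had 95.2, 16.2 and 64.8 normalized counts with fusion protein, against 1336, 870 and 959 with 20 Gy (−4.44 ± 1.08, limma adjusted p = 0.0783, with the block 0.00199). The medians were −2.29 for neutrophil and −3.71 for red cell genes, with 0 calls in limma and edgeR, 6 of 18 and 9 of 14 at an unadjusted p under 0.05, 0 and 1 falls in DESeq2, and 3 and 8 falls with the block. The neutrophil list summed to 854 to 6614 with fusion protein and 6314 to 8072 with 20 Gy. Of its 22 members with a value 7 were at 0 in fusion protein library 2, and of 15 red cell members 8 were. All 11 mitochondrially encoded genes had negative values (median −0.94, 0 called in limma and edgeR, 1 fall in DESeq2, 1 with the block, and 6 at an unadjusted p under 0.05). With the receptor covariate 5 fell, with a median of −1.87.

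Genes of the DNA damage response, known to be induced early after radiation, did not differ by a called amount on day 17. Of 26 p53 targets limma called 0, with a median of 0.09, 1 at an unadjusted p under 0.05, 0 calls in edgeR, 1 in DESeq2 and 0 with the block. Cdkn1a, the p53-induced inhibitor of the cell cycle, had 801, 443 and 4477 normalized counts with fusion protein, against 277, 417 and 5696 with 20 Gy (0.42 ± 1.31, limma adjusted p = 0.934). Its highest values were in both libraries numbered 3. Of 41 genes of replication and mitosis 39 had positive values (median 0.59), limma, edgeR and DESeq2 called 0, 12 were at an unadjusted p under 0.05, and the block called 7 rises.

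The same genes were then read beside the untreated and combined libraries. Against untreated, fusion protein gave 107 rises (0.586%) and 29 falls (0.159%), while 20 Gy gave 0 rises and 0 falls in limma (0%), with 1231 at an unadjusted p under 0.05 and a smallest adjusted p of 0.282. Both comparisons share the untreated libraries, so they are set side by side only. The genes were also chosen on the difference between fusion protein and 20 Gy in these same libraries, which by itself moves the medians below apart, and nothing is read from them. The 143 genes higher than with 20 Gy had a median log2 fold change of 1.55 for fusion protein over untreated and −0.21 for 20 Gy over untreated. For the 127 lower genes these medians were −1.22 and 0.67. Of the higher genes 75 also rose against untreated with fusion protein, and of the lower genes 26 fell. Type I interferon genes had medians of 2.81 with fusion protein and 0.47 with 20 Gy, cDC1 genes −1.15 and 0.81, and cytotoxic genes 0.98 and −0.41. Macrophage genes had medians of 0.451 and 1.356, neutrophil genes 1.123 and 2.925, and red cell genes −0.382 and 3.714, with 0 called in limma. In the cytotoxic list the ranges overlapped: its mean log2 level was 9.329 to 11.295 with fusion protein, 8.324 to 9.858 with 20 Gy and 8.651 to 9.726 in untreated libraries.

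The fold changes on which these genes were chosen did not use the combined libraries, which had received both treatments. Those libraries did enter the filter and the estimate of the spread, so they are not independent of the choice. The combined mean was nearer to the fusion protein mean than to the 20 Gy mean for 140 of 143 higher genes (97.9%) and 111 of 127 lower genes (87.4%), against 56.22% of all tested genes. Ifit3 had 11990, 8293 and 13090 normalized counts in combined libraries and 584, 555 and 400 in untreated libraries. Cd209a had 45.0, 23.6 and 37.1 in combined libraries and 1035, 711 and 862 in untreated libraries. For both genes the combined values lay on the fusion protein side and the untreated values on the 20 Gy side without overlap. Ccl5 behaved differently, at 9472, 10230 and 9784 in combined libraries and 7245, 8238 and 9771 in untreated libraries, between the fusion protein and 20 Gy levels. The untreated mean was nearer to the 20 Gy mean for 125 of 143 higher genes (87.41%) and 102 of 127 lower genes (80.31%), against 48.24% of all tested genes; the same choice of genes bears on these shares.

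**Figure D5:**
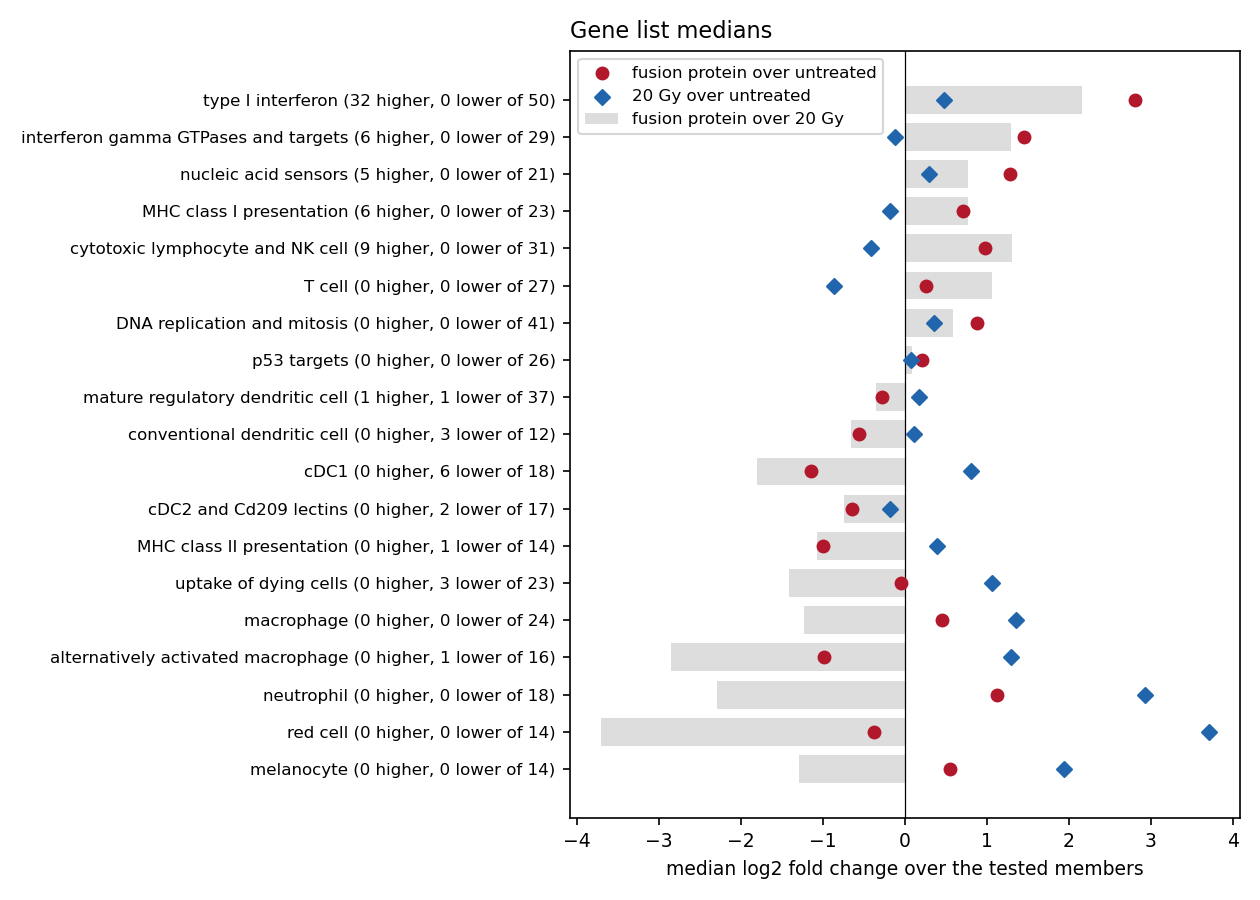
Median log2 fold change over the tested members of 19 gene lists for fusion protein over 20 Gy (bars), fusion protein over untreated (circles) and 20 Gy over untreated (diamonds); counts of genes called in the first comparison stand beside each name. The type I interferon list has 32 of 50 genes higher and a median of 2.16, and the cDC1 list 6 of 18 lower and a median of −1.81.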

How the data were processed

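Per the submitters' processing notes, the authors used FastQC, Trimmomatic, STAR, featureCounts and DESeq2 with the mouse build mm10; versions and settings are not given in the labels. Per the labels' protocols, a SMARTer Pico kit that keeps strand gave the libraries. The deposited values are a signal that the authors made, normalized counts in 1 table of 55401 gene identifiers and 12 libraries. Dividing out a size factor per library gave whole reads, within 0.001, for 100% of values, 14462032 to 23985496 reads a library. GENCODE M21 gave symbols and coordinates for 55141 identifiers (99.53%).

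Genes reaching 10 normalized counts in 3 or more of the 12 libraries were tested with limma 3.58.1 and a variance trend on log2(normalized count + 1), with 4 groups, two-sided, and Benjamini-Hochberg adjustment over all 18274 tested genes at a threshold of 0.05. Fold changes are on this scale, which understates changes of genes with low counts; the ± is the SE. There were 8 residual and 3.313 prior degrees of freedom. As a check, edgeR 4.0.16 called 107 genes higher and 85 lower on the recovered reads, and DESeq2 1.42.0 was run too. Residuals of libraries with the same replicate number correlated at 0.438, 0.268 and 0.475 between both groups, above 0.1 in each pair, so the number was fitted as a block; 20 Gy library 2 correlated more with fusion protein library 1 (0.324). The block left 6 residual degrees of freedom. What the number stands for is not given in the labels.

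The members, the 47 gene lists and the tests were chosen with earlier results of these data known. Named were 10 preset genes (Itgax, Foxp3, Cxcl10, Il12b, Ccl22, Cxcl9, Ccr7, Cd274, Ccl17, Fscn1), the called genes with separate groups and a higher mean of at least 50 that had the 15 highest or 15 lowest fold changes (predicted genes, pseudogenes and receptor segments left out), and up to 4 members of smallest p in each list, 98 genes in all. Other genes in the text were named after their values were seen. Lists are described by counts and medians, with no test of a list. Promoter sequences are RefSeq's, on build GRCm38.p6. The fit was also tested on simulated data. It called 1 of 65 genes changed by 1 on the log2 scale, 19 of 65 changed by 2 and 37 of 63 changed by 3. Among 17194 unchanged genes it made 3 false calls. Many changes of these sizes were thus missed in the simulation. Counts from a few genes of near-identical sequence (Ifit, Oas, Gbp, Slfn, Klra, Trim30, H2-Q and H2-T, Cd209, Sh2d1b, Hba) may be split by the counting. Results for a few genes are not reported here.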

Additional observations from a re-analysis of the deposited data

Results flagged for a closer look

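Reads from the 1479 trace-amine, vomeronasal and olfactory receptor genes, which lie outside the comparison, exceeded the level of every untreated library in 3 of the 6 libraries. A read was present for 29.07% of these genes in fusion protein library 1, for 84.85% in 20 Gy library 1 and for 64.71% in 20 Gy library 2. The untreated libraries had 13.86%, 5.54% and 23.6%, and the combined libraries 64.1%, 15.15% and 44.56%. The source of these reads was not tested.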

How the results depend on the processing

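The counts of rises and falls kept within 1.5 times of 143 and 127 with a pseudocount of 0.5 or 5, no filter, a mean of at least 50, TMM scaling and edgeR. DESeq2 gave 412 and 497, and array weights gave 630 and 908. The replicate block gave 809 and 877; it ended no call among the 98 named genes and added 19. Only the 6 compared libraries in the fit gave 28 and 15, the silent receptor covariate 27 and 17, and leaving out the libraries numbered 3 gave 165 and 57. Leaving out 1 library gave 40 to 166 rises and 14 to 98 falls. Type I interferon rises, 32 in the report, were 49 with the block, 49 with array weights, 12 with only the 6 libraries, 10 with the covariate and 13 to 37 with 1 library left out. The cDC1 falls, 6 in the report, were 14 with the block, 12 with array weights, 3 with only the 6 libraries, 0 with the covariate and 2 to 6 with 1 library left out. Cytotoxic rises, 9 in the report, were 15 with DESeq2, 22 with the block, 22 with array weights, 0 with only the 6 libraries, 0 with the covariate and 3 to 12 with 1 library left out. Of the 64 called genes among those named, 45 lost the call with only the 6 libraries, 49 with the covariate, 17 with edgeR, 19 without the libraries numbered 3 and 11 to 39 with 1 library left out. A log2 fold change turned its sign for 3 genes, none of them called. Ccr7 was at −0.69 in edgeR, −0.71 in DESeq2 and −1.88 with the covariate, and −0.70 to 1.33 with 1 library left out. Fscn1 was at 0.17 with array weights, 0.59 without the libraries numbered 3 and −1.22 to 0.74 with 1 library left out. Cd274 was at 0.44 with array weights, 0.19 without the libraries numbered 3 and −0.61 to 0.78 with 1 library left out. The cause of these differences was not tested, apart from fewer libraries in some fits. With 3 libraries a group, a difference that did not pass is not shown to be absent.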

Other observations

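Several multigene families held rises beside members that were not called. The families were picked after calls among them were seen, and all tested protein-coding members are counted, by symbol. Over all tested genes 0.783% rose and 0.695% fell in limma. Because of how the families were picked, nothing is read from their counts beside these shares. In the Ifit family 5 of 6 rose, and Ifit1bl2 was not called. In the Ifi200 family, which includes DNA sensors, 5 of 12 rose, while Aim2, Mndal and Ifi204 were among the 7 not called. Of 10 guanylate-binding proteins Gbp4, Gbp6, Gbp7 and Gbp10 rose. Trim30a, Trim30c and Trim30d rose among 4 genes of that family, and 4 of 8 Schlafen genes rose. In the Klra family, which includes NK cell receptors, 4 of 11 rose and Klra17 fell. Of 8 Gimap genes, GTPases of lymphocytes, Gimap4, Gimap6 and Gimap7 rose. Genes within these families are similar in sequence, and reads may be shared between them.

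The long noncoding RNA gene Gm47242, on chromosome 19 at 12539588 to 12540823 in mm10, had the smallest p of all tested genes and was named for that. It had 857, 657 and 377 normalized counts with fusion protein, against 30.8, 47.2 and 31.4 with 20 Gy (log2 fold change 4.02 ± 0.31, limma adjusted p = 0.0007).

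Slfn4, a Schlafen gene of myeloid cells named after its values were seen, had 22960, 1346 and 13880 normalized counts with fusion protein, against 604.5, 564.7 and 1557 with 20 Gy. It had 107.8, 39.9 and 41.4 in untreated libraries, so that both treated groups lay above all untreated libraries. The fusion protein and 20 Gy ranges overlapped, and their log2 difference of 3.22 ± 0.92 did not pass (limma adjusted p = 0.124, with the replicate block 0.0069).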
